A study of Homo sapiens with 4 samples.

Results

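The genes described here are 10 core genes of the ATF4 stress response, namely *ATF4*, *DDIT3*, *TRIB3*, *CHAC1*, *ASNS*, *INHBE*, *ADM2*, *ATF3*, *SESN2* and *DDIT4*, out of 24462 genes counted in HepG2 cells, a human liver cancer line. They were taken by symbol and had been chosen because they were high in these same libraries, so their levels and fold changes are descriptions and were not tested. Each of the 4 conditions had 1 library. HepG2 cells were given DMSO, the solvent control, or PD-0332991 (written PD0332991 from here on), a kinase inhibitor of CDK4 and CDK6, or were transfected with scrambled siRNA or with siRNA against CDK4 and CDK6 together (CDK4/6 KD). All cells grew in RPMI with fetal bovine serum. The dose and exposure time of PD0332991 and the time after transfection are not given in the sources used here for the sequenced cells, and no library is labelled as untreated.

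ATF4 is a transcription factor whose messenger RNA is translated better when the initiation factor eIF2α is phosphorylated, which happens when cells lack amino acids, load the endoplasmic reticulum with unfolded protein, lack heme or sense double-stranded RNA. It switches on genes for amino acid synthesis and uptake and for tRNA charging, and it also induces further transcription factors that can turn the response toward cell death. In liver and hepatoma cells the same program raises secreted factors such as INHBE. The libraries measured RNA only, so ATF4 protein and the phosphorylation of eIF2α were not seen.

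The RNA was read by QuantSeq 3′ mRNA sequencing, which gives reads near the 3′ end of each transcript. The libraries held 8983848 to 11176880 reads in all, with 12780 to 13257 genes at 10 reads or more. Levels are given as CPM (reads scaled to a common library size) after TMM scaling, a correction for library composition, with factors from 0.957 to 1.03. A fold change is the ratio of 2 libraries after adding 0.5 reads, and the 95% interval beside it is an exact Clopper-Pearson interval on the split of the gene's reads, which covers counting error only. With a single library per condition, replicate error is unknown, and differences were not given p-values. The knockdown was visible in its targets, since CDK4/6 KD held *CDK4* at 71.9 CPM against 354 in scrambled siRNA, and *CDK6* at 129 against 536. The hepatocyte markers, 10 of 10 with reads in every library, summed to 16440 CPM in DMSO, 18040 in PD0332991, 16340 in scrambled siRNA and 21480 in CDK4/6 KD. In CDK4/6 KD against scrambled siRNA, 9 of the 10 had intervals above 1 (all genes 30%) and 1 below (all genes 31.9%). Of these markers 3 were at least 2-fold higher there (all genes 9.19%).

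All 10 genes were lowest in DMSO, and 9 of them were highest in CDK4/6 KD. The same order at both ends was seen in 8.92% of all genes with at least 10 reads in any library. The libraries held 8645 reads of the 10 genes in DMSO, 21160 in PD0332991, 18003 in scrambled siRNA and 31077 in CDK4/6 KD. Scrambled siRNA thus stood above DMSO for every gene, although neither library had a targeted CDK.

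**Figure D1:**
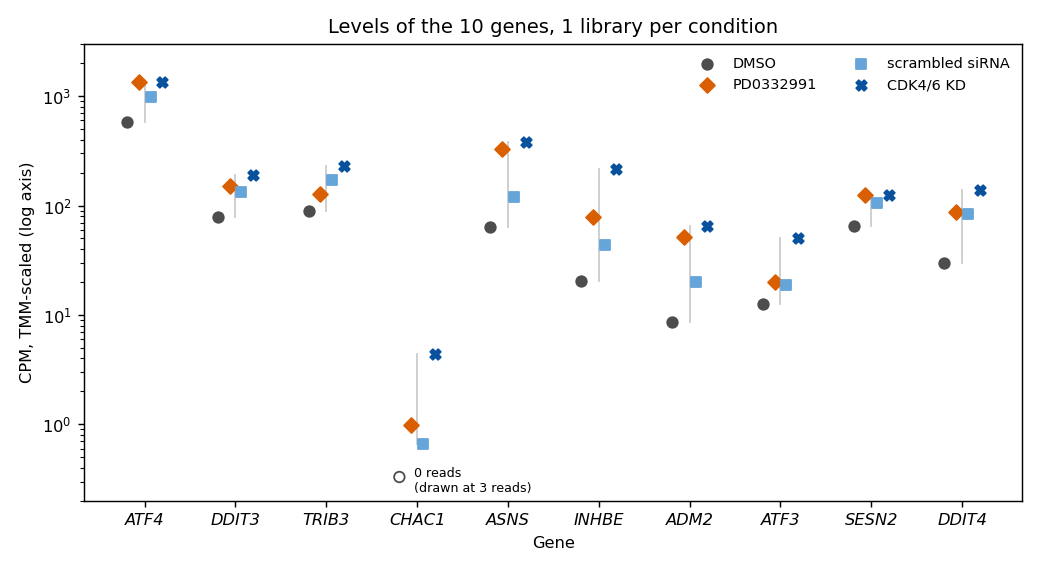
Level of each of the 10 genes in the 4 libraries, as TMM-scaled CPM on a log axis (y) by gene (x), 1 point per library; the thin grey lines join the lowest and highest library with reads. The open circle marks CHAC1 in DMSO, which had 0 reads and is drawn at the level of 3 reads. Every gene is lowest in DMSO, and 9 of 10 are highest in CDK4/6 KD, with ATF4 at 1352 CPM in PD0332991 and 1340 in CDK4/6 KD.

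ATF4 and its target genes often share a short DNA element, bound by ATF4 paired with a C/EBP protein and written here as TGATGNAA. To show which of the 10 genes carry these letters next to their start, RefSeq promoter windows (GRCh38.p14, 250 bases before to 50 bases after each start) were searched on both strands. Windows were given for 9 of the 10 genes, all but *INHBE*. Among these, 3 of 9 genes (33.3%) held the element, against 3.62% of 35116 windows and 4.46% of 27305 genes with a window. The matches with 10 bases on either side are printed 5′ to 3′ on the strand of the gene, with the matched bases in capitals.
CHAC1 (chr15:40953252-40953279, plus strand): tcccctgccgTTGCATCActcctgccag
ASNS (chr7:97872459-97872486, minus strand): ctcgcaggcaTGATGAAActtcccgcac
ATF3 (chr1:212565206-212565233, plus strand): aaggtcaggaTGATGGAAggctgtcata

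The match began 68 bases before the start in *ASNS*, 191 bases before the upstream start in *ATF3* and 209 bases before the start in *CHAC1*, where it lay on the opposite strand. These distances are to RefSeq starts, at 97872408 in *ASNS*, 212565407 in *ATF3* and 40953471 in *CHAC1*, and the *CHAC1* and *ASNS* matches fall inside the gene spans of GENCODE given with each gene. The palindrome TGACGTCA, which ATF and CREB family proteins bind and whose letters differ from the other motif, was in 0 of the 9 genes and in 1.85% of all windows. A match is a description of letters and not a bound site, and the windows are too short to hold distant or intronic elements. Of the other genes of the pathway, the element was in 5 of 9 amino acid transporters with a window (55.6%) and in 7 of 16 cytosolic aminoacyl-tRNA synthetases (43.8%), in 2 of 8 ATF4 partners, in 1 of 12 other ATF4 targets (8.33%), in 1 of 7 serine, glycine and folate-linked enzymes, in 1 of 9 genes for the eIF2α kinases and phosphatase, and in 1 of 18 genes of the ATF6 and XBP1 arms of the unfolded protein response (5.56%).

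Of the transcription factors among the 10 genes, *ATF4* itself (GENCODE 29 on GRCh38, chr22:39519695-39522685, plus strand) had the most reads. Its level was 579 CPM in DMSO, 1352 in PD0332991, 988 in scrambled siRNA and 1340 in CDK4/6 KD. PD0332991 and CDK4/6 KD ended at levels that counting error could not separate (ratio 1.009, interval 0.985 to 1.03), while their controls differed by 1.71-fold (interval 1.65 to 1.77). The fold change was therefore 2.34 (interval 2.26 to 2.41) after PD0332991 and 1.36 (interval 1.32 to 1.39) in CDK4/6 KD, each against its own control. The annotation holds 4 pseudogenes named after *ATF4*, and how reads shared with them were counted is not stated.

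*DDIT3* (chr12:57516588-57521737, minus strand) encodes CHOP, a C/EBP family factor that ATF4 induces and that is tied to cell death under lasting stress. It was at 78.4 CPM in DMSO, 151 in PD0332991, 132 in scrambled siRNA and 192 in CDK4/6 KD. Neighbouring levels in this order, with scrambled siRNA below PD0332991, differed by more than counting error. Its fold change was 1.93 (interval 1.76 to 2.11) after PD0332991 and 1.46 in CDK4/6 KD. The 3′ end of *DDIT3* overlaps *MARS*, the methionyl-tRNA synthetase gene on the opposite strand and itself an ATF4 target, by 982 bases. *MARS* had 1180 reads in DMSO, 2226 in PD0332991, 2170 in scrambled siRNA and 3318 in CDK4/6 KD. Strand use in the counting is not stated, so reads of the 2 genes cannot be told apart.

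*ATF3* (chr1:212565334-212620777, plus strand) encodes a stress-induced factor that both ATF4 and CHOP can induce. It was at 12.6 CPM in DMSO, 19.9 in PD0332991, 18.8 in scrambled siRNA and 50.5 in CDK4/6 KD. PD0332991 and scrambled siRNA were not separated by counting error (ratio 1.06, interval 0.861 to 1.30), and CDK4/6 KD stood apart from all others. CDK4/6 KD gave a fold change of 2.69 (interval 2.29 to 3.18), and PD0332991 one of 1.58 (interval 1.24 to 2.01). *ATF3* also counts among the immediate early genes, and *EGR1*, another of them, had the opposite direction in CDK4/6 KD, at 4.06 CPM against 147 in scrambled siRNA.

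*TRIB3* (chr20:362835-397559, plus strand) encodes a pseudokinase that ATF4 and CHOP induce and that feeds back on ATF4. It was at 88.9 CPM in DMSO, 129 in PD0332991, 172 in scrambled siRNA and 231 in CDK4/6 KD. Alone among the 10 genes it was lower in PD0332991 than in scrambled siRNA (ratio 0.75, interval 0.696 to 0.807). Its fold change was 1.45 after PD0332991 and 1.34 in CDK4/6 KD, below the 1.93-fold difference between the control libraries.

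Of the 2 genes for enzymes, *ASNS* (chr7:97852118-97872542, minus strand) encodes asparagine synthetase, which makes asparagine from aspartate and glutamine, and its promoter element is widely used to follow amino acid shortage. It was at 63.3 CPM in DMSO and 119 in scrambled siRNA, and at 330 in PD0332991 and 381 in CDK4/6 KD. Both treated libraries stood far above both controls. The fold change was 5.21 (interval 4.77 to 5.71) after PD0332991, 3.19 (interval 3 to 3.40) in CDK4/6 KD, and 2.77 when PD0332991 was set against scrambled siRNA. The annotation holds 4 pseudogenes named after *ASNS*.

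*CHAC1* (chr15:40952962-40956519, plus strand) encodes an enzyme that breaks down glutathione and is a sharply regulated target of ATF4 and CHOP. Its reads numbered 0 in DMSO, 7 in scrambled siRNA, 9 in PD0332991 and 50 in CDK4/6 KD. Only the CDK4/6 KD library passed the minimum of 10 reads. There it was at 4.42 CPM, 6.35-fold above scrambled siRNA (interval 3.05 to 17.7), and at least 13.4-fold higher than DMSO, taking DMSO at a floor of 3 reads. PD0332991 was at least 3.01-fold higher than DMSO on the same floor, and at this depth it was not separable from scrambled siRNA (interval of the ratio 0.501 to 4.77). With counting error included, the lower limits against DMSO were 10.5-fold for CDK4/6 KD and 1.98-fold for PD0332991.

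Of the 2 secreted factors, *INHBE* (chr12:57452323-57459280, plus strand) encodes the inhibin βE chain, which forms activin E and is made mainly in liver. It was at 20.5 CPM in DMSO, 43.5 in scrambled siRNA, 78.4 in PD0332991 and 218 in CDK4/6 KD. Each step in that order exceeded counting error. CDK4/6 KD was 5.01-fold above its control (interval 4.54 to 5.55) and 10.6-fold above DMSO (interval 9.18 to 12.4). PD0332991 was 3.82-fold above DMSO (interval 3.26 to 4.52).

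*ADM2* (chr22:50481556-50486440, plus strand) encodes adrenomedullin 2, a peptide hormone of the calcitonin family. It was at 8.65 CPM in DMSO, 19.8 in scrambled siRNA, 52.1 in PD0332991 and 64.6 in CDK4/6 KD. As for *ASNS*, the treated libraries were near each other and above both controls. Its fold change of 5.99 after PD0332991 (interval 4.74 to 7.74) was the highest of the 9 genes that passed the minimum there, and in CDK4/6 KD it was 3.25.

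*SESN2* and *DDIT4* encode stress-induced brakes on mTORC1, the kinase complex that couples amino acid supply to protein synthesis. *SESN2* (chr1:28259527-28282491, plus strand), a leucine sensor, was at 65.2 CPM in DMSO, 106 in scrambled siRNA, 124 in PD0332991 and 125 in CDK4/6 KD. The treated libraries were not separated (ratio 1.00, interval 0.926 to 1.08), and CDK4/6 KD was 1.18-fold above scrambled siRNA (interval 1.09 to 1.28), the smallest fold change of the 10 genes. *DDIT4* (chr10:72273920-72276036, plus strand), which encodes REDD1 and also answers to hypoxia and glucocorticoids, was at 30.1 CPM in DMSO, 83.1 in scrambled siRNA, 86.4 in PD0332991 and 140 in CDK4/6 KD. PD0332991 and scrambled siRNA could not be separated (ratio 1.04, interval 0.944 to 1.15), so its fold change of 2.87 after PD0332991 was close to the 2.76-fold difference between the controls (interval 2.41 to 3.17).

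**Figure D2:**
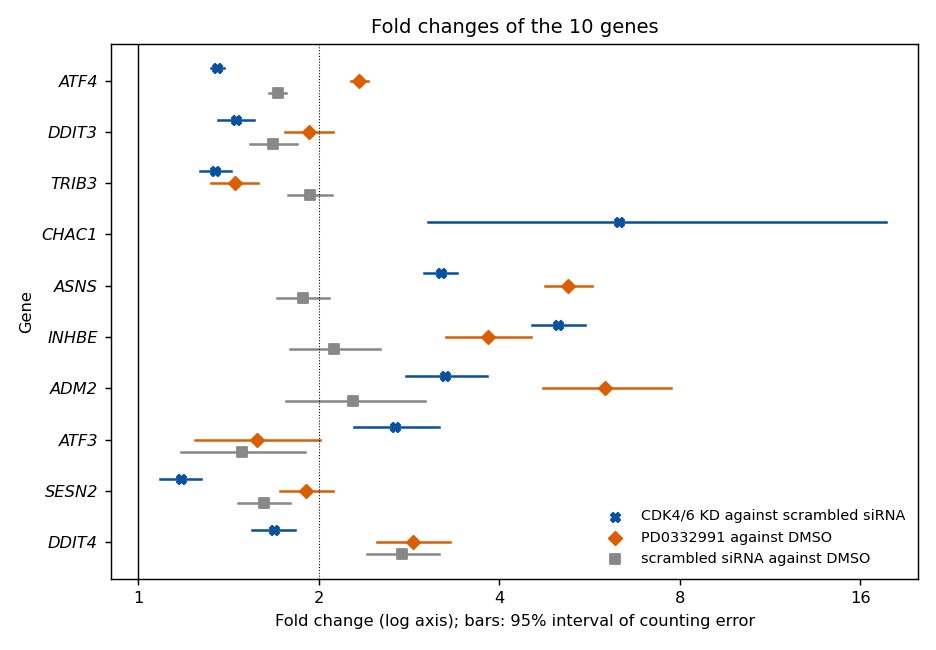
Fold change (x, log axis) of each gene (y) for CDK4/6 KD against scrambled siRNA, PD0332991 against DMSO, and scrambled siRNA against DMSO; bars are 95% intervals of counting error and the dotted line marks 2-fold. CHAC1 has no point against DMSO, where it had 0 reads. ASNS, INHBE and ADM2 lie above 2-fold in both treated comparisons, and all points lie to the right of 1.

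Side by side, 5 of 10 genes in CDK4/6 KD stood at least 2-fold above scrambled siRNA (*CHAC1*, *INHBE*, *ADM2*, *ASNS* and *ATF3*), where 9.19% of 13617 genes were. After PD0332991, 5 of the 9 genes that passed the minimum were at least 2-fold higher than in DMSO (*ADM2*, *ASNS*, *INHBE*, *DDIT4* and *ATF4*), where 7.49% of 13443 genes were. *ATF4* at 2.34 lay just above the threshold there, and *DDIT3* at 1.93 and *SESN2* at 1.91 just below it. With quantile normalization both passed it, at 2.07 and 2.03, which made 7 genes. The share of all genes was not computed for that setting. The genes had been chosen on these contrasts, so the shares describe the choice. Median log2 fold changes were 1.09 in CDK4/6 KD and 1.22 after PD0332991, with all genes at medians of -0.0036 and 0.0179.

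These values depended on the control library. In scrambled siRNA against DMSO, 3 of 9 genes (*DDIT4*, *ADM2* and *INHBE*) were at least 2-fold higher, where 5.3% of all genes were, and the median log2 fold change was 0.91. With DMSO as the control, 9 of 10 genes were at least 2-fold higher in CDK4/6 KD (all genes 8.04%), with *SESN2* at 1.91. With scrambled siRNA as the control, 2 of 9 were at least 2-fold higher in PD0332991, namely *ASNS* at 2.77 and *ADM2* at 2.62 (all genes 10.7%). The sum of the 10 genes in scrambled siRNA, 1682 CPM, lay between DMSO at 946 and PD0332991 at 2324, with CDK4/6 KD at 2745, and whether transfection or another difference between the cultures set it there cannot be told apart with these libraries.

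Counting each gene against *ATF4* in the same library removes library scaling. These ratios compare libraries for 1 gene and not genes with each other. *ASNS* had 10.9 reads per 100 *ATF4* reads in DMSO and 12.1 in scrambled siRNA, and 24.4 in PD0332991 and 28.4 in CDK4/6 KD. *ADM2* had 1.49 and 2.00 in those controls, and 3.85 and 4.82 in the treated libraries. On this scale scrambled siRNA was 1.10-fold above DMSO for *ASNS* and 1.34-fold for *ADM2*. The treated libraries were more than 2-fold above their own control for both genes.

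*INHBE* relative to *ATF4* was 3.54 in DMSO, 4.397 in scrambled siRNA, 5.80 in PD0332991 and 16.3 in CDK4/6 KD, so that the CDK4/6 KD library stood apart. *DDIT3*, between 11.2 and 14.3, and *SESN2*, between 9.20 and 11.3, kept closer to *ATF4* across the 4 libraries. *TRIB3* was lowest in PD0332991 at 9.53, with 15.4 in DMSO, 17.4 in scrambled siRNA and 17.2 in CDK4/6 KD. *ATF3* was at 3.77 in CDK4/6 KD and at 1.47 in PD0332991, on either side of the controls at 2.17 and 1.90.

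**Figure D3:**
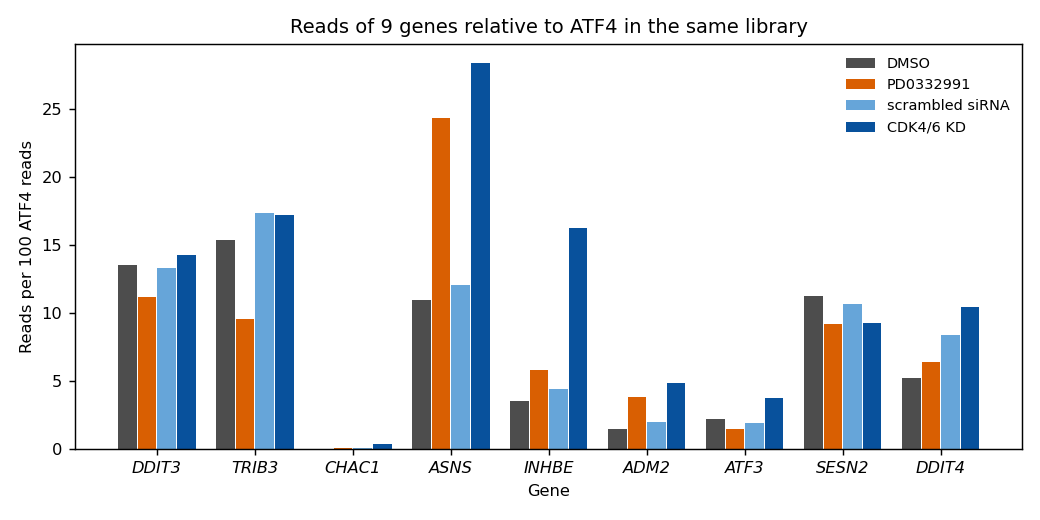
Reads of each of 9 genes (x) per 100 ATF4 reads of the same library (y, from 0), 1 bar per library with no error bar. ASNS and ADM2 are high in both treated libraries, INHBE is highest in CDK4/6 KD at 16.3, and DDIT3 and SESN2 vary little between libraries.

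Upstream of ATF4 are eIF2α, its kinases and their activators, and the eIF2α phosphatase. None of the 10 measured genes of this list was past 2-fold in either direction in CDK4/6 KD or after PD0332991, and the median log2 fold changes were -0.02 and -0.06. *EIF2S1*, which encodes eIF2α, was at 0.637-fold in CDK4/6 KD (interval 0.573 to 0.706) and 0.711-fold after PD0332991 (interval 0.617 to 0.818), and scrambled siRNA was 1.601-fold above DMSO. *PPP1R15A*, which encodes GADD34, the stress-induced phosphatase subunit that restores translation, was at 0.617-fold in CDK4/6 KD (interval 0.526 to 0.723) and 1.20-fold after PD0332991 (interval 0.986 to 1.45). It was at 21.7 CPM in DMSO and 37.4 in scrambled siRNA. CDK4/6 KD and DMSO were not separated by counting error for this gene (ratio 1.06, interval 0.881 to 1.29).

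Of 10 partners and feedback factors of ATF4, 4 were at least 2-fold higher in CDK4/6 KD (all genes 9.19%). After PD0332991, 4 were (all genes 7.49%). *NUPR1*, a small chromatin-linked stress protein prominent in liver cells, was at 50.02 CPM in DMSO and 50.9 in scrambled siRNA, and at 235 in PD0332991 and 162 in CDK4/6 KD. *JDP2*, a bZIP repressor related to ATF3, was at 8.21 and 9.25 CPM in the same controls and at 25.4 and 41.6 in the treated libraries. The controls were not separated by counting error for either gene (ratios 1.02 and 1.13), unlike those of the 9 genes compared above. *CEBPB*, which encodes a dimer partner of ATF4, was 2.04-fold higher in CDK4/6 KD and 1.29-fold after PD0332991. *TSC22D3*, a glucocorticoid-induced gene, was 4.37-fold higher in CDK4/6 KD and 17.2-fold after PD0332991 from 6 reads in DMSO (interval 8.19 to 51.2).

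Of 12 serine, glycine and folate-linked enzymes, 3 were at least 2-fold higher in CDK4/6 KD (all genes 9.19%) and 4 after PD0332991 (all genes 7.49%). None was 2-fold lower, and the median log2 fold changes were 0.56 and 0.76. *MTHFD2*, a mitochondrial folate enzyme, was at 152 CPM in DMSO, 160 in scrambled siRNA, 256 in PD0332991 and 478 in CDK4/6 KD. *CTH*, which makes cysteine from cystathionine, was 2.97-fold higher in CDK4/6 KD and 2.82-fold after PD0332991. *PSAT1*, of serine synthesis, was 2.14-fold and 1.72-fold higher, and *CBS*, the enzyme before *CTH*, 1.93-fold and 1.99-fold. Between the controls these 4 genes differed by 1.05-fold to 1.19-fold. Of all 12 enzymes, 8 had intervals above 1 in scrambled siRNA against DMSO (all genes 28.3%), with a highest fold change of 3.39.

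Other known ATF4 targets were mixed. In CDK4/6 KD, 5 of the 13 genes past the minimum were up by 2-fold or more (all genes 9.19%). Down by as much were 2 (all genes 7.62%). After PD0332991, 2 were up (all genes 7.49%) and 1 was down (all genes 7.07%). *VLDLR*, a lipoprotein receptor, gave 152 reads in CDK4/6 KD and 15 in scrambled siRNA (a ratio of 9.29, interval 5.63 to 17.5), and its interval after PD0332991 included 1. *KLHL24*, a ubiquitin ligase adaptor, was 3.21-fold higher in CDK4/6 KD and 4.58-fold after PD0332991. *BBC3*, which encodes the death-promoting protein PUMA and is also a p53 target, was 2.73-fold and 1.505-fold higher.

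Genes for amino acid uptake and tRNA charging, which ATF4 also serves, had medians near 0 in CDK4/6 KD. Of the 10 transporters, 1 was up by 2-fold or more in CDK4/6 KD (all genes 9.19%) and 1 was down (all genes 7.62%). The median log2 fold change there was -0.04. After PD0332991, 3 were up by as much (all genes 7.49%), at a median of 0.60. *SLC7A5*, the large neutral amino acid transporter, was at 327 CPM in DMSO, 354 in PD0332991, 315 in scrambled siRNA and 124 in CDK4/6 KD. *SLC38A2* was at 0.785-fold in CDK4/6 KD and its interval after PD0332991 included 1. Against DMSO, *SLC38A2* in CDK4/6 KD was at 1.12-fold. *SLC6A9*, the transporter that was up in CDK4/6 KD, was at 13.7 CPM in DMSO, 44.0 in PD0332991, 12.1 in scrambled siRNA and 43.6 in CDK4/6 KD. In scrambled siRNA, 7 of the 10 transporters had intervals above 1 against DMSO (all genes 28.3%), at a median log2 fold change of 0.45. Of the 20 cytosolic aminoacyl-tRNA synthetases, 0 were at least 2-fold higher in CDK4/6 KD and *FARSB* was lower at 0.455-fold. After PD0332991, 3 were at least 2-fold higher (all genes 7.49%). These 3 lay at the threshold, since the highest fold change was 2.04 and 0 had a whole interval past 2-fold. In scrambled siRNA, 17 of these 20 genes had intervals above 1 against DMSO (all genes 28.3%), at a median log2 fold change of 0.47.

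The ATF6 and XBP1 arms, which raise chaperones when the endoplasmic reticulum is loaded, differed between the 2 treatments. None of the 18 genes was past 2-fold in CDK4/6 KD, 11 had intervals above 1 (all genes 30%) and 5 below (all genes 31.9%). After PD0332991, 4 were at least 2-fold lower (all genes 7.07%) and 13 had intervals below 1 (all genes 28.6%). *PDIA4*, a protein disulfide isomerase, was at 287 CPM in DMSO, 106 in PD0332991, 212 in scrambled siRNA and 327 in CDK4/6 KD. *MANF*, a secreted protein of the reticulum, was at 209, 87.1, 229 and 349 CPM in the same order. Both genes were thus lowest in PD0332991, where *ASNS* and *ADM2* were more than 5-fold above DMSO. *HERPUD1*, which ATF4 as well as ATF6 can induce, was above 1 in both, at 1.84-fold in CDK4/6 KD and 1.23-fold after PD0332991.

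**Figure D4:**
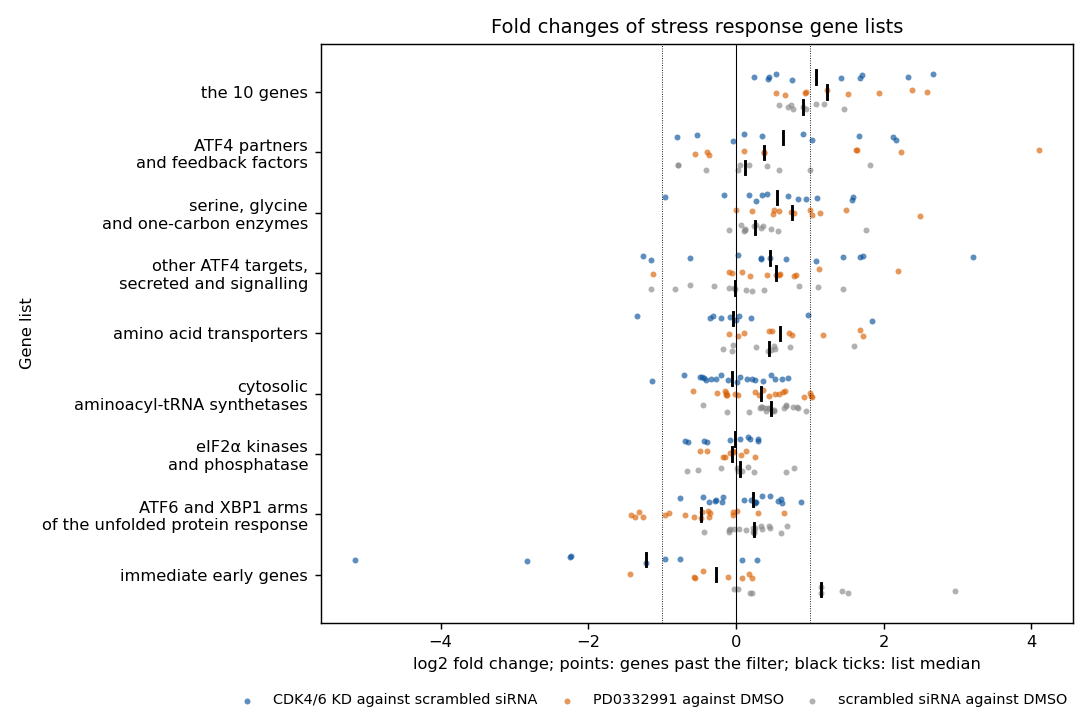
log2 fold changes (x) of the genes past the minimum of 10 reads in 9 gene lists (y) for the 2 treated comparisons and for scrambled siRNA against DMSO; each point is a gene, black ticks are list medians and dotted lines mark 2-fold. The 10 genes lie to the right of 0 in all 3 comparisons, the ATF6 and XBP1 list has its median at -0.47 after PD0332991, and the immediate early list has its median at -1.22 in CDK4/6 KD and 1.15 in scrambled siRNA against DMSO.

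Paralogs of the 10 genes were of mixed direction. Of 11 paralogs past the minimum, 4 were up by 2-fold or more in CDK4/6 KD (all genes 9.19%). Down by as much were 2 (all genes 7.62%). *TRIB1*, a paralog of *TRIB3*, was at 39.6 CPM in CDK4/6 KD against 133 in scrambled siRNA (0.299-fold). *TRIB2*, another paralog of *TRIB3*, was higher in CDK4/6 KD, at 24.5 CPM against 8.22 in scrambled siRNA. *ADM*, the paralog of *ADM2*, was at 12.0 CPM against 39.4 (0.306-fold). *ATF5*, the factor closest to *ATF4*, was at 0.690-fold in CDK4/6 KD and 0.677-fold after PD0332991. *SESN1*, the p53-responsive paralog of *SESN2*, was 2.48-fold higher in CDK4/6 KD and at 0.767-fold after PD0332991. The pairs *TRIB3* and *TRIB1*, and *ADM2* and *ADM*, thus had opposite directions in the same CDK4/6 KD library. The sizes depended on the control, since *TRIB1* was at 64.8 CPM and *ADM* at 18.2 in DMSO. Against DMSO, CDK4/6 KD was at 0.611-fold for *TRIB1*, 0.662-fold for *ADM* and 1.35-fold for *SESN1*. *TRIB2* and *JDP2* had the direction of *TRIB3* and *ATF3*.

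Of 12 other controllers of mTORC1 beside *SESN2* and *DDIT4*, 1 was at least 2-fold higher in CDK4/6 KD, near the share of all genes (9.19%). After PD0332991, 2 were (all genes 7.49%). *EIF4EBP1*, a translation repressor and ATF4 target, was 1.602-fold and 1.72-fold higher. Of 15 p53 targets, which include genes that overlap the stress response, 3 were at least 2-fold higher in CDK4/6 KD (all genes 9.19%). In the same library 2 were at least 2-fold lower (all genes 7.62%), and after PD0332991 0 were past 2-fold in either direction.

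By the likeness of its levels to the median profile of the 10 genes over the 4 libraries, the nearest of 11368 other genes was *SMIM14*, a small membrane protein gene, at a root mean square distance of 0.105 on the log2 scale. It was at 28.02 CPM in DMSO, 77.5 in PD0332991, 55.7 in scrambled siRNA and 108 in CDK4/6 KD. *ACAD11*, an acyl-CoA dehydrogenase gene, *YTHDF3-AS1* and *NEK8* came next at 0.131 to 0.158, and *PCSK4*, *TBC1D17*, *SLC25A45* and *TMED6* were also among the nearest. None of these genes was in a pathway list. With 4 points per gene, likeness describes these libraries only.

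Markers of other cell types were checked beside these results. Endothelial markers summed to at most 0.657 CPM, with 4 or 5 of 6 at 0 reads. Fibroblast markers summed to 49.9 CPM in DMSO, 80.5 in PD0332991, 8.88 in scrambled siRNA and 23.1 in CDK4/6 KD, an order unlike that of the 10 genes. Keratinocyte markers summed to between 363 and 583 CPM, and 0 to 2 of 15 were at 0. After PD0332991, 7 of the 10 past the minimum were at least 2-fold higher than in DMSO (all genes 7.49%). At least 2-fold lower was 1 (all genes 7.07%), and the median log2 fold change was 2.39. In scrambled siRNA, 5 of 9 were at least 2-fold higher than in DMSO (all genes 5.3%), at a median of 1.19. In CDK4/6 KD against scrambled siRNA the median was -0.46. *KRT5* had 2 reads in DMSO, 13 in scrambled siRNA, 43 in CDK4/6 KD and 113 in PD0332991, and *KRT14* had 9, 31, 74 and 249 in that order. Both keratins were thus lowest in DMSO, as the 10 genes were, but highest in PD0332991. Other markers of the list differed from them. *SFN* was at 134 CPM in DMSO, 305 in scrambled siRNA, 102 in CDK4/6 KD and 61.8 in PD0332991, and *TP63* had at most 1 read. Leukocyte markers summed to between 511 and 1036 CPM, nearly all from *LYZ*, with 1 or 2 of 6 at 0. Their part in the levels of the 10 genes was not tested. In bulk RNA, fewer cells of a kind and less RNA per cell cannot be told apart.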

How the data were processed

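HepG2 cells were profiled in 4 QuantSeq 3′ libraries, 1 per condition, grouped by sample title. The values deposited by the authors are unnormalized counts of reads on each gene symbol. The submitters' processing notes name hg19, Bowtie2 and edgeR, with no versions, and the annotation and strand setting of the counting are not given in the sources used here. Each table had 25737 rows, and counts of the 286 repeated symbols were summed, which touched none of the 10 genes. Library sizes were corrected with TMM factors (edgeR 4.0.16, R 4.3.3). Fold changes used 0.5 added reads, at least 10 reads in either library and a floor of 3 reads, and 95% Clopper-Pearson intervals (scipy 1.17.1). Intervals and floors cover counting error only. With 1 library per condition no count model could be tested, and no p-value was computed. The procedure was tested on simulated data that held counting error only, so the simulation says nothing about replicate error.

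The 10 genes and the 12 pathway and 5 marker lists were chosen with earlier results of these data known. All 10 genes were named, with up to 4 genes per pathway list, ranked by the interval end nearest 1 in CDK4/6 KD in the direction of the list's median, the 10 genes nearest to the median profile (at least 50 reads in 1 library; 2 of them are not reported here), and *CDK4* and *CDK6*. *MARS*, *LYZ*, *KRT5*, *KRT14*, *SFN*, *TP63*, *TRIB2* and *SLC6A9* were named after their values were seen. 3 list symbols were matched through RefSeq synonyms. Positions came from GENCODE 29 on GRCh38, since no annotation of hg19 was used here. Alternatives were DESeq2 size factors (DESeq2 1.42.0), total counts, quantile normalization (limma 3.58.1), the control of the other arm, 5 added reads, minimum counts of 50 or none, thresholds of 1.5-fold or of whole intervals past 2-fold, the entry with most reads for a repeated symbol and, chosen after seeing the data, centring on the median of all genes.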

Additional observations from a re-analysis of the deposited data

Results flagged for a closer look

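In 9 of the genes named from the pathway lists, the CDK4/6 KD library lay on one side of its control and the PD0332991 library on the other, with neither interval including 1. With 1 library per condition, the difference between the 2 treatments was not tested. *PDIA4* had a fold change of 1.54 in CDK4/6 KD and 0.371 after PD0332991, *MANF* 1.52 and 0.417, and *HYOU1*, a chaperone of the endoplasmic reticulum, 1.48 and 0.772. *XPOT*, the tRNA exporter, had 3.3 and 0.457, and *SESN1* 2.48 and 0.767. The other genes were lower in CDK4/6 KD and higher after PD0332991. *SLC7A5* had 0.395 and 1.08, its partner chain *SLC3A2* 0.805 and 1.36, *TRIB1* 0.299 and 1.12, and *NDRG1*, a hypoxia-responsive gene, 0.388 and 1.57. None of the 10 stress response genes was of this kind, but they had been chosen on these contrasts, so this describes the choice. Some of the opposite directions depended on the control. Against scrambled siRNA, PD0332991 was at 0.548-fold for *TRIB1*, 0.896-fold for *NDRG1* and 1.42-fold for *SESN1*, and the interval of *XPOT* included 1. Against DMSO, the interval of *SLC3A2* in CDK4/6 KD included 1. *PDIA4*, *MANF*, *HYOU1* and *SLC7A5* kept both directions with the controls exchanged.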

How the results depend on the processing

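No paired analysis was possible because each condition had 1 library and the labels carry no replicate numbers. With the control of the other arm, 9 genes were at least 2-fold higher in CDK4/6 KD at a median log2 fold change of 2.11, and 2 after PD0332991 at a median of 0.23, and *TRIB3* reversed after PD0332991, to 0.75-fold. With no filter the PD0332991 median was 1.37, because *CHAC1* with 0 reads in DMSO then entered it, which made 6 genes past 2-fold, and quantile normalization made 7. At 1.5-fold, 8 genes were past the threshold after PD0332991. Shares of all genes were not computed with no filter, with quantile normalization or at 1.5-fold, so these counts have no share beside them. Of 11 alternatives, 7 gave fold changes of single genes. The entry with most reads for a repeated symbol was among these and could not change any, since none of the 10 symbols was repeated. Of the 187 values for the 10 genes (*CHAC1* only in CDK4/6 KD), 186 lay above 1 and 27 moved outside the counting interval without changing direction. Total counts moved the median of all genes in CDK4/6 KD to 0.10 on the log2 scale. Depth left *CHAC1*, at 50 reads or fewer, with the widest intervals of the 10 genes.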

Other observations

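Immediate early genes, which growth factor and stress kinases switch on within minutes, had the highest median log2 fold change of the 12 pathway lists between the control libraries, 1.15. In scrambled siRNA 5 of 9 were at least 2-fold higher than in DMSO (all genes 5.3%), with *EGR1*, a zinc finger factor, at 18.8 CPM in DMSO and 147 in scrambled siRNA, and *IER3* 2.70-fold higher. In CDK4/6 KD 5 of 9 were at least 2-fold lower than in scrambled siRNA (all genes 7.62%), with *EGR1* at 4.06 CPM, *IER3* at 0.141-fold and *DUSP6*, a phosphatase that acts on ERK, at 0.211-fold. After PD0332991 the intervals of *EGR1* and *DUSP6* included 1, and *IER3* was at 0.674-fold.

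Among 10 hypoxia targets, 4 were at least 2-fold lower (all genes 7.62%) and 1 higher (all genes 9.19%) in CDK4/6 KD. Of the 8 past the minimum after PD0332991 none was past 2-fold. *PDK1*, which slows pyruvate entry into mitochondria, was at 0.400-fold in CDK4/6 KD and 0.818-fold after PD0332991, and *NDRG1* at 0.388-fold and 1.57-fold. *DDIT4*, which hypoxia can also induce, was 1.68-fold higher in that CDK4/6 KD library.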
